A study of Homo sapiens with 10 samples.

Results

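The clustered protocadherins are 53 genes on chromosome 5, listed in the annotation as PCDHA1 to PCDHA13, PCDHAC1 and PCDHAC2, PCDHB1 to PCDHB16, PCDHGA1 to PCDHGA12, PCDHGB1 to PCDHGB7 and PCDHGC3 to PCDHGC5. The set is defined by gene name, with no measured value in its rule, and all 53 were found among the 20033 protein-coding genes of GENCODE release 44 on hg38. All lie on the forward strand between PCDHA1, which starts at chr5:140786140, and chr5:141512977, the annotated end of PCDHGC3. The last gene to start is PCDHGC5. CTCF was mapped by ChIP-seq, with antibodies SC-28198 and SC-271514 together, in HEK293T cells, a human embryonic kidney line. The cells carried a lentivirus with a non-targeting shRNA (CT), an shRNA against CGGBP1 (KD) or a CGGBP1 overexpression construct (OE). CGGBP1 is a small nuclear protein that binds CGG repeats and other repetitive DNA. CT and KD cells had been selected with 10 µg/ml puromycin, while no selection is stated for OE. H3K4me3, a mark of active promoters, and H3K9me3 and H3K27me3, marks of repressed chromatin, were mapped in CT and KD. Each condition had 1 library per target, and the cells of the 1 input library are not named in the sources used here.

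Clustered protocadherins are cell surface adhesion proteins best known from neurons, where each cell uses its own small set of them as an identity. Each alpha and gamma gene has its own large variable exon with its own promoter, joined by splicing to constant exons shared within its cluster, whereas the beta genes consist of a single exon. Many of these promoters hold a conserved sequence element that CTCF binds, and the alpha genes also hold a CTCF site inside the variable exon. The C-type genes, PCDHAC1, PCDHAC2 and PCDHGC3 to PCDHGC5, are known to be used more uniformly across cells than their neighbours. The lists hold positions of peaks and no heights, so a promoter could only be counted as listed or not listed, with no depth behind a peak. With 1 library per condition no test between CT, KD and OE was possible, and every difference below is one between lists.

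CTCF sites were searched with a matrix of 20 positions learned from CTCF peaks on other chromosomes, whose most frequent letters read TGGCCACCAGGGGGCACTAT. The sequences below are from hg38 and show why the sites at these genes fall into a few classes. The 20 bases matched to the matrix are in capitals with 5 bases on each side in lower case, and coordinates are those of the capitals. All are on the forward strand, the strand of the genes. The matches at PCDHA8, PCDHB15 and the first 3 gamma genes are the best ones closely before the start but miss the threshold on p of 1e-05 that defined a site. PCDHGB7 had a better match further upstream, centred at -377.5 bp from its start, with a matrix p of 1.41e-05. It too missed the threshold. The alpha promoter sites, just before the start, shared the letters TGTCGCT, except that PCDHA9 had TGTCACT:
PCDHA1 promoter, chr5:140786088-140786107: tacatTGGCCACATGATGTCGCTGTacacc
PCDHA3 promoter, chr5:140800996-140801015: acgttTAGCCACATGATGTCGCTGTccacc
PCDHA8 promoter, chr5:140841132-140841151: ttttgAAGCCACATGATGTCGCTGTctacc
PCDHA11 promoter, chr5:140868885-140868904: agtttTAGGCGCAAGGTGTCGCTCTttact
Some alpha genes had sites past the threshold both before the start and in the exon within 1000 bp of it. The exon site matched the matrix better at PCDHA4, PCDHA7, PCDHA9 and PCDHA11 and less well at PCDHA10. The exon sites shown here had most of their letters in common:
PCDHA4 exon, chr5:140807641-140807660: ctcggTTTCCACTAGAGGGCGCCTCggatg
PCDHA5 exon, chr5:140822226-140822245: cgcggTTTCCGCTAGAGGGCGCGTCggatt
PCDHA11 exon, chr5:140869557-140869576: cgcgtTTTCCACTAGAGGGAGCTTCtgatg
PCDHA13 exon, chr5:140882722-140882741: ctcgaTTTCCACTAGATGGCGCATCcgatg
The beta promoter sites carried TGGCGCT, and PCDHB9 held the best match of all promoter sites, with a matrix p of 3.72e-08:
PCDHB9 promoter, chr5:141187076-141187095: gttggAAGCCACAAGGTGGCGCTGCagact
PCDHB10 promoter, chr5:141192301-141192320: ggtggAGGCCACACGGTGGCGCTGCaggct
PCDHB14 promoter, chr5:141223265-141223284: acatgGAGACACATGGTGGCGCTACaggat
PCDHB15 promoter, chr5:141245316-141245335: caaagACAACGCATGGTGGCGCTGCaggct
The gamma promoters mostly held weaker matches, with CGCCGCT at PCDHGB1 and PCDHGA11 among those shown, and PCDHGA12 was the only gamma A or gamma B gene with a site past that threshold:
PCDHGB1 promoter, chr5:141350027-141350046: caagaCAACCTCTGGGCGCCGCTGTcgacc
PCDHGB7 promoter, chr5:141417585-141417604: acacaGAGCCTCTGGGCGCCGCCGTcggcc
PCDHGA11 promoter, chr5:141420974-141420993: aagaaTGGGCTCTAGGCGCCGCTGCtcacc
PCDHGA12 promoter, chr5:141430450-141430469: tttgaAGAACAGTAGGTGGAGCTATttaag

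A promoter was taken as the 1000 bp on either side of the start of the MANE Select transcript. Among the 53 promoters, 23 held at least 1 matrix site with p below 1e-05, or 43.4%, beside 40.5% of all protein-coding promoters, so the presence of a site did not set these genes apart. All 13 alpha genes had one, as did 7 of 16 beta genes, 1 of 12 gamma A genes, 0 of 7 gamma B genes and 2 of 5 C-type genes. What the sites shared was position and strand. All 16 sites within 300 bp of a start were centred between -85.5 and -15.5 bp from it, with a median of -64.5 bp, where negative values lie before the start, and all 16 pointed along the gene. Inside the variable exon, counted only to 1000 bp after the start, 10 of 13 alpha genes had a site. Further sites past the threshold lay deeper in alpha variable exons, as at PCDHA1, where they were on both strands. With the threshold relaxed to 1e-04, a site lay between 575.5 and 627.5 bp after the start in 12 of 13 alpha genes, all except PCDHA1, and again all 12 pointed along the gene. That direction holds for this stretch alone. Nearer the start each of these genes also held a reverse site at the relaxed threshold, as at 362.5 and 455.5 bp in PCDHA3. Of the 29 sites past 1e-05 at the 53 promoters, 28 were on the strand of the genes. The exception lay at -740.5 bp from the PCDHGC4 start.

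The 3 forms of 7 letters named above, picked after the sequences had been seen, were then counted on both strands in the 150 bp before each start. They have their last 4 letters in common. TGTCGCT was present at 12 of 13 alpha genes and at 0.918% of all protein-coding genes. TGGCGCT was present at 13 of 16 beta genes and at 2.58% of all genes. CGCCGCT was found at 6 of 12 gamma A and 4 of 7 gamma B genes and at 6.86% of all genes. At least 1 of the 3 stood before 39 of the 53 starts, or 73.6% beside 10.0% of all genes. At these 39 starts the letters were always on the strand of the gene, and PCDHGC3 was the only C-type gene among the 39.

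In CT cells, CTCF peaks were listed at 14 of 53 promoters on unmasked reads, or 26.4% with an exact Clopper-Pearson 95% interval of 15.3 to 40.3%, which like the others here covers counting error only. The share over all protein-coding genes was 7.04%. The beta genes PCDHB8 to PCDHB13 and PCDHB15 made up 7 of the 14. The alpha genes were PCDHA1, PCDHA5, PCDHA11 and PCDHA13, and the gamma genes were PCDHGB1, PCDHGB2 and PCDHGA12. In the list from repeat-masked reads 16 promoters had a peak, or 30.2% beside 6.77% of all genes. It added PCDHA8, PCDHB14 and PCDHGC3, the only C-type gene with CTCF, and lacked PCDHGB2.

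In KD cells, CTCF peaks were listed at 37 of 53 promoters, or 69.8% (95% interval 55.7 to 81.7%), beside 11.1% of all genes. Of these, 24 had no CT peak on unmasked reads, which is 45.3% of the members beside 6.09% of all genes. They were PCDHA2, PCDHA3, PCDHA4 and PCDHA7 to PCDHA10, then PCDHB2, PCDHB3, PCDHB4, PCDHB6, PCDHB7 and PCDHB14, then the 7 gamma A genes PCDHGA1 and PCDHGA6 to PCDHGA11, the 3 gamma B genes PCDHGB3, PCDHGB5 and PCDHGB7, and PCDHGC3. In the opposite direction 1 promoter, PCDHA5, had a CT and no KD peak on unmasked reads, beside 2.04% of all genes. The KD list from repeat-masked reads did hold a peak on its exon, at chr5:140822157-140822322. The alpha genes thus went from 4 listed promoters to 10, the beta genes from 7 to 13, the gamma A genes from 1 to 8, the gamma B genes from 2 to 5 and the C-type genes from 0 to 1.

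On repeat-masked reads the KD list held 28 promoters, or 52.8% (38.6 to 66.7%), beside 7.93% of all genes. There 12 promoters had a KD peak and no CT peak, beside 3.33% of all genes, and 0 had the reverse, beside 2.17%. Taking 3 counts as the limit that a count of 0 allows, as for every 0 here, 0 of 53 allows a share of up to 5.66%. PCDHB16, between PCDHB8 and PCDHB9, was listed in this KD list alone, with a peak of 166 bp. Of the 24 promoters listed in KD and not in CT on unmasked reads, 14 also had a KD peak on repeat-masked reads, or 58.3% beside 52.7% of all such genes, and 3 had a CT peak there, or 12.5% beside 14.9%. Both shares were near those of all genes. The unmasked CT and KD lists were called at the same p of 0.0025 by the labels, and they held 42978 and 47632 peaks in all.

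In OE cells, 26 of 53 promoters had a CTCF peak, or 49.1% (35.1 to 63.2%), beside 9.7% of all genes. The labels give a looser p of 0.005 for this list, and the part of that threshold in the count was not tested. Here 17 promoters had an OE peak and no CT peak, beside 5.13% of all genes. They were PCDHA3, PCDHA4, PCDHA8, PCDHB2, PCDHB3, PCDHB4, PCDHB6, PCDHB7, PCDHB14, PCDHGA1, PCDHGA3, PCDHGB3, PCDHGA6, PCDHGA9, PCDHGA10, PCDHGB7 and PCDHGA11. All but PCDHGA3 were also named for KD above, but the same CT list stands behind both comparisons, so nothing is read from that. In the reverse direction PCDHA1, PCDHA13, PCDHB12, PCDHGB2 and PCDHGA12 had a CT and no OE peak, beside 2.47% of all genes, and all 5 were listed in KD. On repeat-masked reads, called at 0.001 in each condition, OE held 18 promoters, or 34.0% beside 6.47% of all genes. There 7 were in OE and not in CT, beside 2.39%, and 5 were in CT and not in OE, beside 2.69%.

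**Figure D1:**
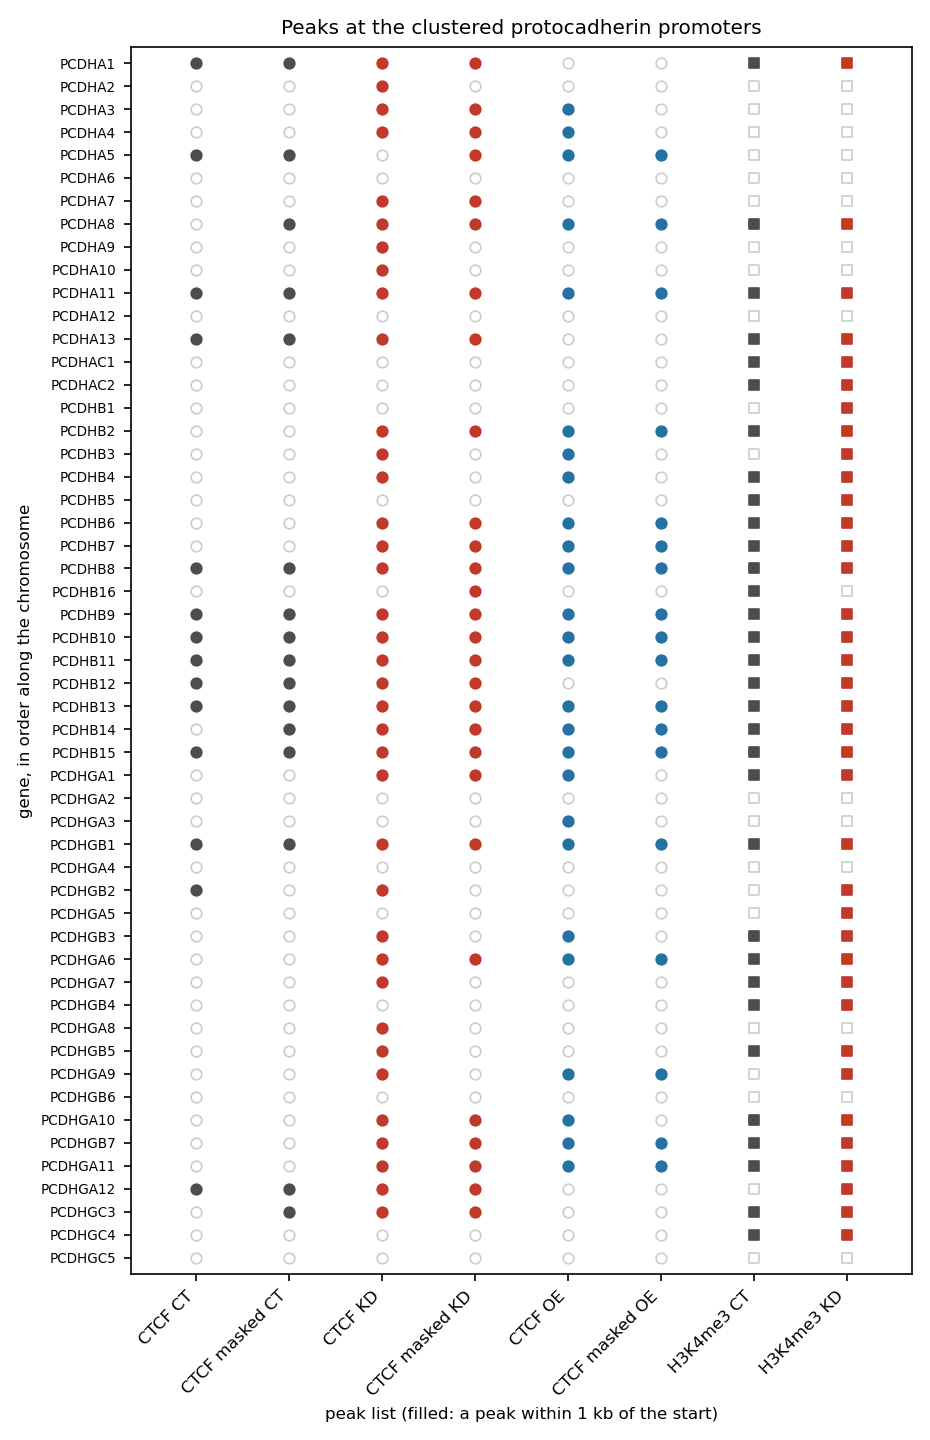
Each row is a gene in order along the chromosome and each column a peak list, with CTCF as circles and H3K4me3 as squares, filled where a peak overlaps the 1000 bp on either side of the start. CTCF columns fill from 14 promoters in CT to 37 in KD and 26 in OE on unmasked reads, while 13 rows stay empty in all CTCF columns.

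**Figure D2:**
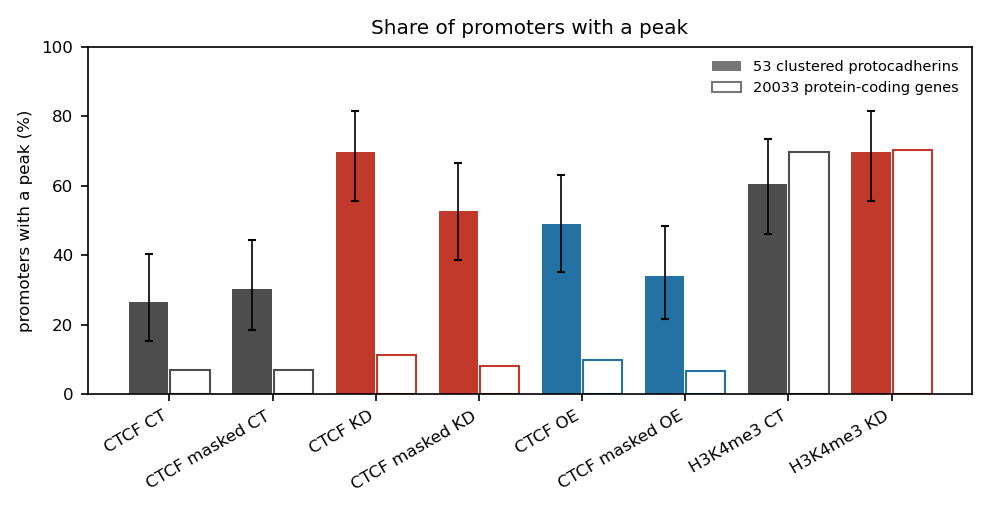
Bars give the percent of promoters with a peak, filled for the 53 clustered protocadherins with exact 95% intervals of counting error and open for the 20033 protein-coding genes. For CTCF the filled bars run from 26.4% to 69.8% and the open bars from 6.47% to 11.1%, and for H3K4me3 the intervals include the share of all genes.

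Across the conditions, 8 promoters were listed in all 6 CTCF lists: PCDHA11, PCDHB8, PCDHB9, PCDHB10, PCDHB11, PCDHB13, PCDHB15 and PCDHGB1. These 8 were also all the members in the 3 unmasked lists, or 15.1% beside 4.30% of all genes. The 3 repeat-masked lists had 11 members in common, or 20.8% beside 3.88%. At PCDHB10 the unmasked peaks covered chr5:141192228-141192459 in CT, chr5:141192100-141192441 in KD and chr5:141191982-141192410 in OE, each over the site shown above. At PCDHA11 the unmasked CT and OE lists had separate peaks on the promoter site and on the exon site, and KD had the promoter peak alone. On repeat-masked reads CT had the exon peak alone and KD the promoter peak alone. Neither PCDHA11 site was thus in all 6 lists. PCDHB8, PCDHB13, PCDHB15 and PCDHGB1 were listed throughout without a site past the threshold. PCDHB8 and PCDHB13 share much of their sequence, and 46.8% and 47.8% of their promoter bases lay in an 80-mer that occurs more than once in hg38, so reads there cannot be told apart with certainty. The share of such promoter bases was 16.3% at both PCDHB9 and PCDHB10, but 0% under their unmasked CT and KD peaks. Among promoters listed in KD and not in CT the share was 31.4% at PCDHA9, 29.3% at PCDHA7, 24.6% at PCDHGB5 and 18.2% at PCDHA8. Under the unmasked KD peaks at the starts of PCDHA7 and PCDHA8 it was 0%. The KD peak on the PCDHA9 exon lay wholly in such sequence, and 39.3% of the KD peak on the PCDHA8 exon did, so these exon peaks are uncertain.

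In all, 13 promoters had no CTCF peak in any of the 6 lists: PCDHA6, PCDHA12, PCDHAC1, PCDHAC2, PCDHB1, PCDHB5, PCDHGA2, PCDHGA4, PCDHGA5, PCDHGB4, PCDHGB6, PCDHGC4 and PCDHGC5. PCDHA6, PCDHA12, PCDHB5, PCDHGC4 and PCDHGC5 held a matrix site past the threshold all the same, on the exon in PCDHA6 and PCDHA12 and just before the start in PCDHB5. Of the 23 promoters with a site, 8 were listed in CT, 17 in KD and 11 in OE, and of the 30 without one, 6, 20 and 15 were. Over all protein-coding genes, the shares with a site were 12.4% in CT, 19.2% in KD and 16.7% in OE, and without a site 3.38%, 5.55% and 4.98%.

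The peaks themselves sat at one place. Of the 38 unmasked KD peaks at member promoters, 35 had their centre within 150 bp of the start, or 92.1%, with 23.3% as the share for the 2283 KD peaks at all protein-coding promoters. The numbers were 11 of 15 in CT and 23 of 28 in OE, beside 25.2% and 21.0%. Leaving out the exon peaks, the median centre relative to the start was -21 bp for CT, -51 bp for KD and -62 bp for OE. Apart from these, each condition had 3 peaks on alpha exons. In CT they were on PCDHA5, PCDHA11 and PCDHA13, in KD on PCDHA8, PCDHA9 and PCDHA13, and in OE on PCDHA5, PCDHA8 and PCDHA11. PCDHA4, whose exon site had a matrix p of 8.27e-08, was listed at its promoter site in KD and OE and at its exon in neither.

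**Figure D3:**
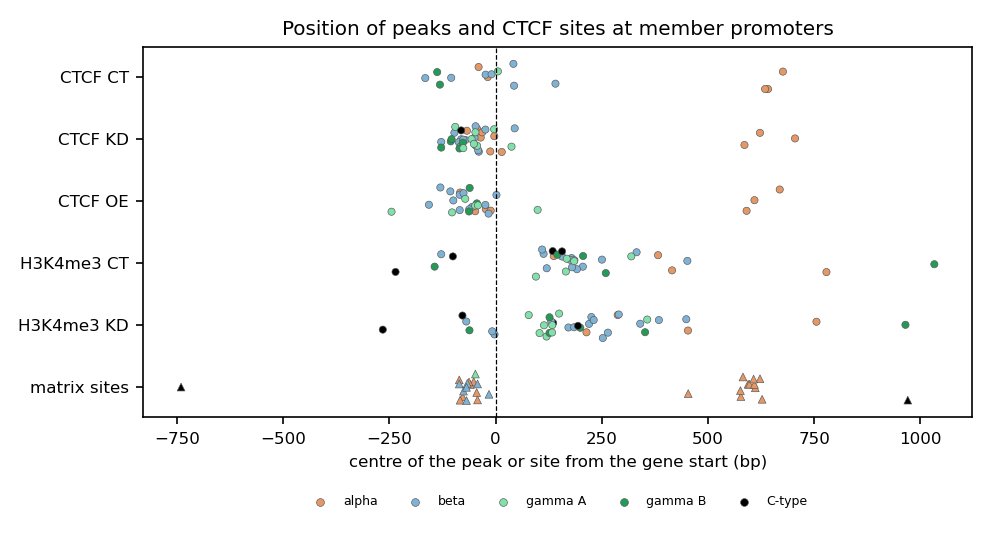
The horizontal axis is the distance in bp of a peak centre or matrix site from the gene start, with negative values before it. Points are peaks at member promoters by list, triangles are the 29 matrix sites past 1e-05, and colours are gene groups. CTCF points gather just before the start, with 3 alpha exon peaks per condition well after it, and most H3K4me3 centres lie after the start.

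H3K4me3 was listed at 32 of 53 promoters in CT, or 60.4% (46.0 to 73.5%), beside 69.7% of all genes. In KD it was listed at 37, or 69.8%, beside 70.4%. Of the beta genes, 14 in CT and 15 in KD carried the mark. Among the 13 alpha genes it was listed at PCDHA1, PCDHA8, PCDHA11 and PCDHA13 in both conditions and at no other. These 4 each had a CTCF peak in at least 1 CT list, but PCDHA5 had one in both CT lists and no H3K4me3 in either condition. The C-type genes PCDHAC1, PCDHAC2, PCDHGC3 and PCDHGC4 carried it in both, and PCDHGC5 in neither.

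Between the lists, 6 promoters had H3K4me3 in KD and not in CT, or 11.3% of the members beside 0.998% of all genes. They were PCDHB1, PCDHB3, PCDHGB2, PCDHGA5, PCDHGA9 and PCDHGA12, where KD peaks covered from 187 to 513 bp of the promoter. PCDHB16 alone had the mark in CT and not in KD, over 262 bp, beside 0.359% of all genes. Only PCDHB3 and PCDHGA9 were also among the 24 promoters with CTCF in KD and not in CT, or 8.33% of the 24 beside 1.23% of all such genes, and the other 4 were among the remaining 29, or 13.8% beside 0.983%. PCDHGB2 and PCDHGA12 had CTCF in CT already, and PCDHB1 and PCDHGA5 had no CTCF peak in any list.

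The bases of a promoter under H3K4me3 peaks gave a rough measure of its breadth. In the 31 promoters listed in both conditions the median was 782 bp in CT and 686 bp in KD, the median difference was 1 bp, and 16 were broader and 15 narrower in KD. For all protein-coding genes with both, the median was 1376 bp in CT and 1403 bp in KD. Of these genes 57.9% were broader in KD and the median difference was 12 bp. The 3 broadest members in either condition were C-type promoters, at 1194 and 1180 bp for PCDHAC1, 1268 and 1311 bp for PCDHGC3 and 1422 and 1415 bp for PCDHGC4 in CT and KD. Larger differences were seen at PCDHB6, with 248 bp in CT and 1078 bp in KD, and at PCDHB14, with 954 and 604 bp, and PCDHA11, with 988 and 686 bp. These values have no replicate to measure their error.

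**Figure D4:**
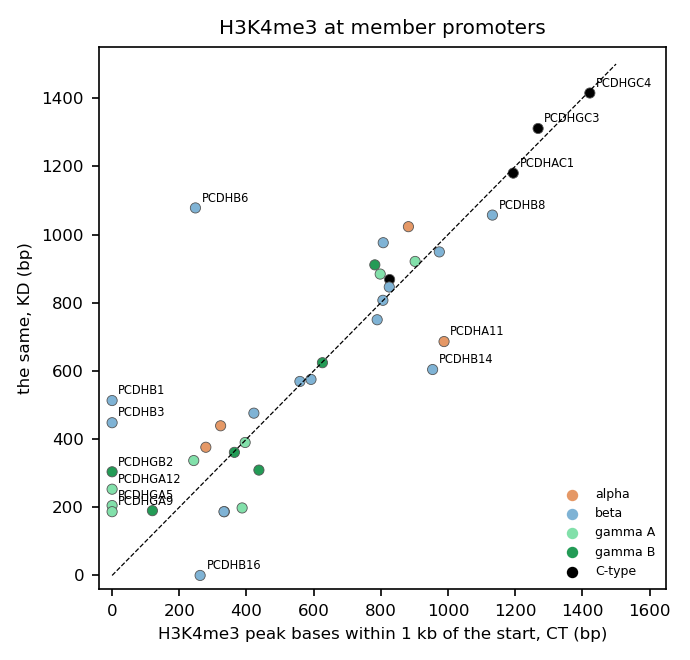
Each point is a promoter with an H3K4me3 peak in CT or KD, placed by the bp covered within 1000 bp of the start in CT (horizontal) and KD (vertical), with equal values on the dashed line. PCDHAC1, PCDHGC3 and PCDHGC4 lie at the upper end near the line, 6 promoters lie on the left edge with no CT peak, and PCDHB16 lies on the lower edge.

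CTCF and H3K4me3 were listed together at most CTCF promoters. In KD, 30 of the 37 promoters with CTCF had H3K4me3, and 7 of the 16 without CTCF did. For all genes the shares were 92.7% and 67.6%. The 7 KD promoters with CTCF and no H3K4me3 in either condition were PCDHA2, PCDHA3, PCDHA4, PCDHA7, PCDHA9, PCDHA10 and PCDHGA8. Conversely, PCDHAC1, PCDHAC2, PCDHB5, PCDHGB4 and PCDHGC4 had H3K4me3 in both conditions and CTCF in none. At PCDHGB4 this was an overlap at the edge, with peaks that began 881 bp after the start in CT and 811 bp in KD. They covered 120 and 190 bp of that promoter. No peak of any kind was listed at PCDHA6, PCDHA12, PCDHGA2, PCDHGA4, PCDHGB6 and PCDHGC5.

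The repressive marks were listed at few protein-coding promoters of any kind, so their near absence here is not read as a trait of these genes. H3K9me3 was listed at 0 of 53 promoters in CT and in KD, which by that limit of 3 counts allows a share of up to 5.66%, beside 0.983% and 0.574% of all genes. One CT peak of 161 bp lay at -1135 bp from the PCDHGB3 start, at chr5:141369027-141369187. H3K27me3 was listed at 1 promoter in CT, that of PCDHB14, at chr5:141223349-141223508, and at 0 in KD, beside 0.334% and 0.0649% of all genes. The labels and the methods of the study name the antibodies of these marks the opposite way round, so the assignment of both lists rests on their titles.

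Over the gene bodies with 10 kb on either side, which form 4 separate windows of 651409 bp in all, the unmasked lists held 19 CTCF peaks for CT, 46 for KD and 38 for OE, and the repeat-masked lists held 18, 33 and 25. Member promoters held 15, 38 and 28 of the unmasked peaks. The unmasked totals of the windows came to 2.92, 7.06 and 5.83 peaks per 100 kb, beside 1.35, 1.49 and 1.49 over chromosomes 1 to 22, X and Y. H3K4me3 peaks numbered 43 in CT and 50 in KD, and no input peak fell in the windows. Bases in 24-mers that occur at least 10 times in hg38, used as a measure of repeats, covered 5.33% of the peak bases of the unmasked CT list, 2.74% for KD and 4.09% for OE. Bases in 80-mers that occur more than once covered 14.1%, 6.46% and 6.48%.

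A few CTCF peaks lay outside the promoters of the members. The strongest matrix match of the locus was in the last exon shared by the gamma genes, and it was listed in all 3 unmasked lists and in the repeat-masked KD and OE lists. It lies on the reverse strand and is shown along that strand, because its direction was opposite to the promoter sites:
gamma last exon, chr5:141512498-141512517: ggctaTGGCCACTAGGGGGCGCACTgggga
Together with 2 neighbours in the same exon it made up a row of 3 sites, all on the reverse strand. Upstream of PCDHB1, peaks at about 10 kb before the start were listed in all 6 lists, on another reverse site at chr5:141041367-141041386, and KD and OE had a second peak on a reverse site at chr5:141040358-141040377, just outside the window. Of the 46 sites of the locus outside member promoters, 28 were forward and 18 reverse. Among those inside a CTCF peak, 3 were forward and 5 reverse, whereas all 19 in peaks at member promoters were forward. Further peaks lay at the pseudogenes PCDHB17P (CT and KD) and PCDHB18P (KD and OE) and, in all 6 lists, next to the start of TAF7, a general transcription factor gene that lies between the beta and gamma genes.

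**Figure D5:**
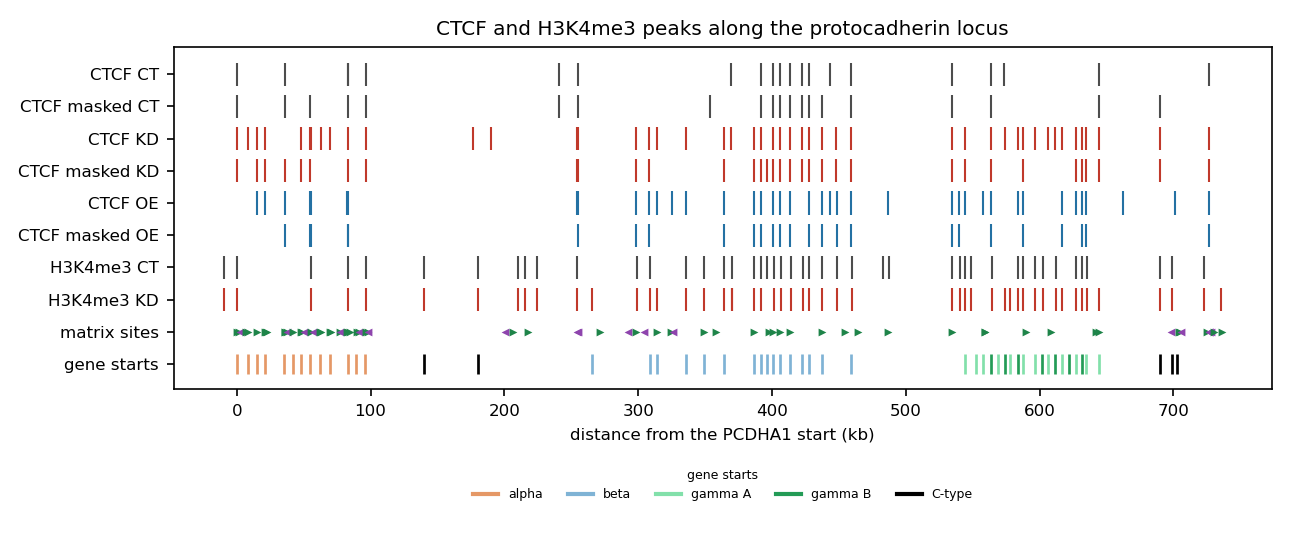
Peaks of 8 lists are drawn as lines along the locus by their distance in kb from the PCDHA1 start, above matrix sites past 1e-05 (green forward, purple reverse) and the gene starts coloured by group. The PCDHB8 to PCDHB15 stretch is mostly filled in every condition, and on unmasked reads the alpha and gamma stretches hold more lines in KD and OE than in CT.

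For comparison, 13 protocadherins outside the clusters were examined. CTCF was listed on unmasked reads at 2 of them in each condition, PCDH1 in all 3, PCDH17 in CT and PCDH15 in KD and OE. H3K4me3 was listed at 12 of 13 in CT and 11 of 13 in KD, with PCDH12 the gene without it in both. PCDH11X and PCDH11Y are known as close copies, and how far their reads can be told apart was not tested. As a check of the cells, H3K4me3 was listed in both conditions at ACTB, GAPDH, EEF1A1 and RPLP0, used by every cell, and at VIM, PAX2, LHX1 and SALL1, known from HEK293 cells, and at 0 of 6 markers of other cells (PTPRC, CD3E, ALB, INS, MYH6 and HBB). The lists hold no measure of CGGBP1 itself, so the knockdown and the overexpression could not be checked here.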

How the data were processed

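According to the labels and the methods, single-end Ion Torrent reads were mapped with Bowtie2 to hg38, as unmasked or repeat-masked reads, and peaks were called in each library with MACS2 and compared with bedtools (versions not given in the sources used here). The 13 lists used hold chromosome, start and end of peaks as deposited by the authors, with no score or height. Labels give a p of 0.0025 for unmasked CTCF in CT and KD, 0.005 in OE and 0.001 for the other lists, while the methods give 0.005 for unmasked reads. The 6 lists of peaks exclusive to a condition were not used. The depth behind a peak is unknown. Starts were read as counted from 0 and are printed counted from 1.

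The members and lists of genes were chosen with earlier results of these data known. The rule for the members uses gene names alone. All 53 members are accounted for. Members with a peak in any list were named where their calls differed between lists, and the rest by name only. A promoter was called where a peak overlapped it by at least 1 bp, with the 20033 protein-coding genes of GENCODE 44 as background. The CTCF matrix was learned from 12184 repeat-masked CT peaks off chromosome 5 that overlap KD and OE peaks, starting from the seed CAGGGGGCG, and was present in 85.0% of them. Its p refers to random sequence with the base composition of the genome, which promoters do not share. The Python 3 scripts were tested on simulated data with known answers. Alternatives changed the promoter width, the overlap, the start, the lists and the site threshold.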

Additional observations from a re-analysis of the deposited data

How the results depend on the processing

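No paired analysis was possible because each group holds 1 library, and no library could be left out. With a promoter of 500 or 2000 bp on each side, with at least 0.5 of the peak inside the promoter, without peaks that overlap an input peak and with the 5 prime end of the gene as its start, the counts of promoters stayed within 1.5 times their values, with 2 exceptions. At 500 bp 0 promoters had CTCF in CT and not in KD on unmasked reads, and at 2000 bp 1 promoter had H3K9me3 in CT. With the widest 20000 peaks of each list, unmasked CTCF was listed at 5 promoters in CT, 11 in KD and 10 in OE, and H3K4me3 at 7 in CT and 9 in KD. Then 9 promoters were in KD and not in CT, 3 in CT and not in KD, and 9 in OE and not in CT on unmasked reads, 6 were in KD and 3 in CT alone of the pair on repeat-masked reads, and 2 had H3K4me3 in CT and not in KD. The windows then held 6, 15 and 15 unmasked CTCF peaks in CT, KD and OE and 11 and 13 H3K4me3 peaks in CT and KD. These lists hold fewer peaks by construction. Counting a peak in either the unmasked or the repeat-masked list was an alternative chosen after seeing the data. It gave 17 CT, 39 KD and 26 OE promoters, beside 9.09%, 11.6% and 10.3% of all genes. By this count 22 promoters were in KD and not in CT, and 0 were the other way. No share of all genes is given for the other counts of this paragraph, so they are not read as a trait of these genes. At a site threshold of 1e-04, 48 promoters held a site, and 0 held the seed CAGGGGGCG without a mismatch. With 24-mers that occur at least 100 times, repeated bases were 1.90% in KD and 3.51% in OE. The depth behind single peaks is unknown, so a promoter that was not listed may have fallen just short of the peak threshold.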
